A study of Rattus norvegicus with 2 samples.

Results

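The genes described here are 6 members of the tumor necrosis factor (TNF) superfamily of ligands and receptors, *Tnf*, *Tnfrsf1a*, *Tnfrsf1b*, *Tnfrsf11b*, *Tnfrsf12a* and *Tnfsf9*, taken by symbol from the 25399 genes of the deposited gene lists. They were measured in cardiac cells from neonatal Sprague-Dawley rats aged 1 to 3 days, of both sexes pooled, that had been enriched for intrinsic cardiac adrenergic (ICA) cells on a Percoll gradient. The cells were cultured with 1 µg/mL lipopolysaccharide (LPS, from the 055:B strain as labelled) or with saline (control) for 2 h, and each treatment gave 1 single-cell library of the 10X Genomics 3′ kind, with 12689 LPS cells and 11531 control cells. The study asked whether ICA cells are a source of cardiac TNF-α after LPS, and the comparison here is LPS against control within each of the authors' 11 cell clusters.

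TNF-α, the product of *Tnf*, is a cytokine made as a membrane protein and shed by a protease, and macrophages are its best known source after contact with LPS. It binds 2 receptors. TNFR1, from *Tnfrsf1a*, is found on most cell types and carries a death domain, whereas TNFR2, from *Tnfrsf1b*, lacks one and is typical of immune and endothelial cells. *Tnfrsf11b* encodes osteoprotegerin, a secreted decoy receptor for RANKL (*Tnfsf11*) and TRAIL (*Tnfsf10*). *Tnfrsf12a* encodes Fn14, the receptor of TWEAK (*Tnfsf12*), and *Tnfsf9* encodes 4-1BBL, the ligand of *Tnfrsf9*. In heart muscle, TNF-α is known as a depressant of contraction in sepsis.

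The 250 bases before the annotated start of *Tnf*, *Tnfrsf1b* and *Tnfrsf1a*, from RefSeq on GRCr8, are shown because these genes, the ligand and its 2 receptors, had unlike patterns across clusters. Of the 6 members, 4 had an entry in the RefSeq promoter table. Capitals mark TATAAA in *Tnf*, at chr20:3626435-3626684 on the + strand, and TGANTCA, the letters of an AP-1 site with any base in the middle, in *Tnfrsf1b*, at chr5:162387412-162387661 on the - strand. *Tnfrsf1a*, at chr4:159836869-159837118 on the + strand, held neither.
Tnf: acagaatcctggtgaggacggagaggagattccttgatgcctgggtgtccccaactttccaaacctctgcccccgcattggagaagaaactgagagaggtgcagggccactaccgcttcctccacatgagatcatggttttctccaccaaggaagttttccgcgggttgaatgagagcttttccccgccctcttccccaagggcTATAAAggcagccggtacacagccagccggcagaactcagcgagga
Tnfrsf1b: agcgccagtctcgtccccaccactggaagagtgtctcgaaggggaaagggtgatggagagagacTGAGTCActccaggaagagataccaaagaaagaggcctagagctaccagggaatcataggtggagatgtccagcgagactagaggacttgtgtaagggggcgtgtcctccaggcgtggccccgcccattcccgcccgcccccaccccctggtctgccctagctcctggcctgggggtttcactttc
Tnfrsf1a: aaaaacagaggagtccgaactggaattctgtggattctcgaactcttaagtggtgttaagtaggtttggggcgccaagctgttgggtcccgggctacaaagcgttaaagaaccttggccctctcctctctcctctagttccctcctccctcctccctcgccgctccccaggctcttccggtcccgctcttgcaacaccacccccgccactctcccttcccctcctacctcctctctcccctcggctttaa

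On both strands, TATAAA was found in 12.9% of the 33469 windows of this length and TGANTCA in 6.34%. In *Tnf* the first base of TATAAA lay 46 bases before the start, and in *Tnfrsf1b* that of TGANTCA lay 186 bases before it. Neither of these windows held the other motif. A match of this kind is a description of the letters only.

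Cells were taken in the authors' clusters. Clusters 0, 1 and 7 carry the authors' name Fibroblast, cluster 3 ICA and Cardiomyocyte, clusters 4 and 5 Endothelial and cluster 6 Macrophages, while clusters 2, 8, 9 and 10 were left without a name and are given here by their leading genes (*Rgs5* and *Kcnj8*, *Bnc1* and *Upk1b*, mitochondrial genes and *Myh6*, and *Sox10* and *S100b*). The leading genes of cluster 9 do not name its cell type. There, 8 fibroblast markers summed to 148% (control) and 136% (LPS) of the cluster 0 level. In the same cells 8 cardiomyocyte markers summed to 16.2% and 17.3% of the cluster 3 level. In cluster 6, 12 macrophage markers summed to 7868 CPM in control and 7267 CPM in LPS cells, against 42.2 to 85.0 CPM and 18.8 to 60.8 CPM in the other clusters. The labels call all cells ICA cells, but 57.2% of control and 55.4% of LPS cells were in cluster 0. In cluster 3, *Th*, which marks ICA cells in the study, was at 0 in both libraries. Of the other ICA markers, *Slc18a1* was also at 0 in both libraries and *Slc18a2* in control cells. However, 5 ICA markers summed to 75.0 CPM in control cells of cluster 3, from *Dbh* and *Ddc* alone. In LPS cells of cluster 3 the 5 markers summed to 81.9 CPM, from *Dbh*, *Ddc* and *Slc18a2*. In the other clusters they summed to 1.75 to 20.9 CPM in control and 0 to 6.27 CPM in LPS cells. The libraries held 152624585 control and 127580475 LPS UMIs, with medians of 12479 and 9432 per cell, and 194 cell barcodes occurred in both. With 1 library per condition there was no replicate and no test. Levels are UMIs (unique molecular identifiers, which count RNA molecules) summed over the cells of a cluster per 1000000 UMIs of that cluster (CPM). All intervals are at 95% and express counting error alone, and how the libraries were handled cannot be told apart from the treatment.

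*Tnf* was almost absent from the control library and was concentrated in macrophages in the LPS library. Cluster 6 held 5 *Tnf* UMIs in its 281 control and 117 in its 291 LPS cells, or 1.61 CPM (0.521 to 3.75) and 47.1 CPM (38.9 to 56.4). These levels differed 29.3-fold (12.2 to 92.0), which put *Tnf* at place 25 of the 6344 genes with at least 50 UMIs in the cluster. With 5 control UMIs it passed that minimum only through its LPS UMIs, so a place among the higher genes was fixed. The macrophages were 2.29% of the clustered LPS cells and held 56.5% of all *Tnf* UMIs of that library. With 3000 UMIs drawn at random from every cell, so that depth is equal, the share of macrophages with a *Tnf* UMI was 1.07% in control and 11.4% in LPS cells, against 1.42% and 22.7% at the cells' own depth. The thinned UMIs gave a smaller ratio, 3.35 on the log2 scale against 4.87 for all UMIs. It came from a single random draw that left 3 control and 33 LPS macrophages with a *Tnf* UMI, and has no interval.

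*Tnf* RNA was spread unevenly over the LPS macrophages. No *Tnf* UMI was seen in 225 of them, 43 had 1 UMI, 9 had 2 and 14 had 3 or more, up to 7 in a single cell. The tenth of cells with the most *Tnf* UMIs held 69.2% of them. Cells with a *Tnf* UMI were somewhat deeper, with a median of 7996 UMIs against 6710 in the others. In control macrophages the 5 UMIs lay in 4 cells. Neutrophils also make TNF-α, and 4 neutrophil markers summed to 37 control and 58 LPS UMIs in cluster 6, or 11.9 and 23.3 CPM. Of these, *Cxcr2* was at 0 in both libraries and *Csf3r* had UMIs in control cells but was at 0 in LPS cells. The LPS sum was therefore *S100a8* and *S100a9* alone. Their part in the *Tnf* level was not tested.

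**Figure D1:**
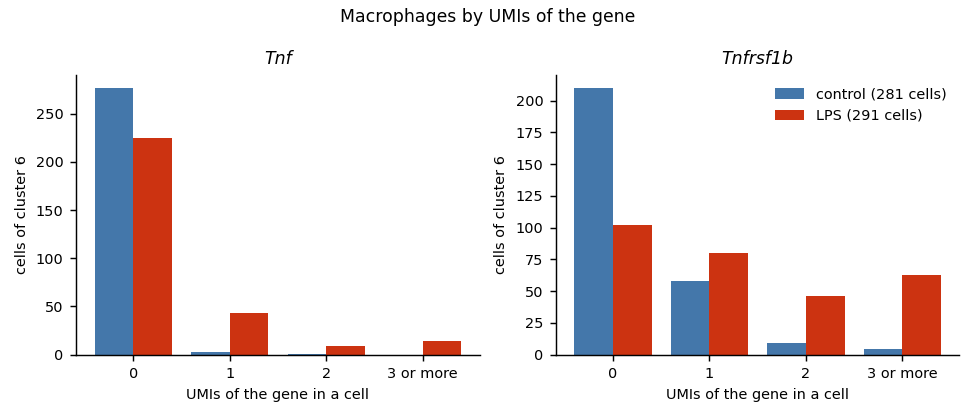
Number of macrophages (cluster 6, y axis, cells) by the number of UMIs of *Tnf* (left) and *Tnfrsf1b* (right) in the cell, for the control library (blue, 281 cells) and the LPS library (red, 291 cells). Most LPS macrophages (225) had no *Tnf* UMI, whereas 102 had no *Tnfrsf1b* UMI and 63 had 3 or more of it.

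Outside macrophages *Tnf* was low in both libraries but had more UMIs in LPS cells. All other clusters together held 12 control and 90 LPS UMIs, at 0.0803 and 0.720 CPM, a ratio of 8.97 (4.89 to 18.0). In the fibroblasts of cluster 0 it had 4 and 53 UMIs, at 0.0442 CPM (0.0120 to 0.113) and 0.719 CPM (0.538 to 0.940), a 16.3-fold difference (5.99 to 61.9). No cell of cluster 0 had more than 1 *Tnf* UMI, and the 53 UMIs lay in 53 of 7030 LPS cells.

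Among the smaller clusters, the endothelial cells of cluster 5, led by *Selp* and *Plvap*, held 0 *Tnf* UMIs in 350 control and 11 in 443 LPS cells, or 2.42 CPM (1.21 to 4.32), which overlapped the 1.97 CPM (0.407 to 5.77) of cluster 7. In cluster 5 the 4 neutrophil markers summed to 26 control and 69 LPS UMIs, or 6.12 and 15.2 CPM, with only *Cxcr2* at 0. The part of neutrophils in the *Tnf* level of cluster 5 was not tested. The other endothelial cluster, cluster 4, had 1 control and 7 LPS UMIs. Clusters 1, 2 and 7 had 5 and 7, 1 and 5, and 1 and 3 UMIs, and the interval of each ratio held 1. *Tnf* was not detected in clusters 8, 9 and 10, where 0 UMIs, read as at most 3, allow up to 2.86, 10.7 and 18.8 CPM in the LPS library.

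In cluster 3, which holds the ICA cells and cardiomyocytes, 836 control cells held 0 *Tnf* UMIs and 929 LPS cells held 4, at 0.730 CPM (0.199 to 1.87). None of the 4 lay in a cell with a UMI of *Dbh*, the enzyme that makes norepinephrine and the marker by which the study names ICA cells. The 121 LPS cells of cluster 3 with a *Dbh* UMI had 0 *Tnf* UMIs among 723418, which allows up to 4.15 CPM, so a level such as that of the whole cluster was not detectable in them. None of the 4 cells with *Tnf* held 2 or more macrophage marker UMIs.

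Droplets also take up RNA released by other cells, so *Tnf* UMIs outside macrophages were set beside other RNA of macrophages in the same cells. In LPS cells the *Tnf* level of cluster 0 was 1.53% (1.08 to 2.13) of the macrophage level, while 12 macrophage markers summed were at 0.444% (0.426 to 0.464), with single markers between 0.244% and 1.01%. In cluster 5 *Tnf* was at 5.14% (2.49 to 9.53) and the summed markers at 0.835% (0.738 to 0.940), with single markers from 0% to 16.5%. For clusters 1, 2, 3 and 4 the *Tnf* value was 0.739% (0.291 to 1.57), 1.26% (0.403 to 3.04), 1.55% (0.416 to 4.08) and 1.53% (0.601 to 3.25) of the macrophage level, beside summed markers at 0.449%, 0.328%, 0.444% and 0.499%, and in cluster 7 it was 4.19% (0.852 to 12.6) beside 0.407%.

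The intervals of *Tnf* and of the summed markers were apart in clusters 0, 2, 4, 5 and 7, with *Tnf* the higher, and overlapped in clusters 1 and 3. The highest single marker, at 0.461% in cluster 2, 1.32% in cluster 4 and 1.37% in cluster 7, lay within the *Tnf* interval there, and in cluster 5 it lay above that interval. Of the 53 LPS cells of cluster 0 with *Tnf*, 4 (7.55%) also held at least 2 macrophage marker UMIs, against 5.38% of all LPS cells of the cluster, while in control cells 3 of 4 did, against 15.7% of all control cells of the cluster. The part of free RNA and of mixed droplets in these values was not tested.

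**Figure D2:**
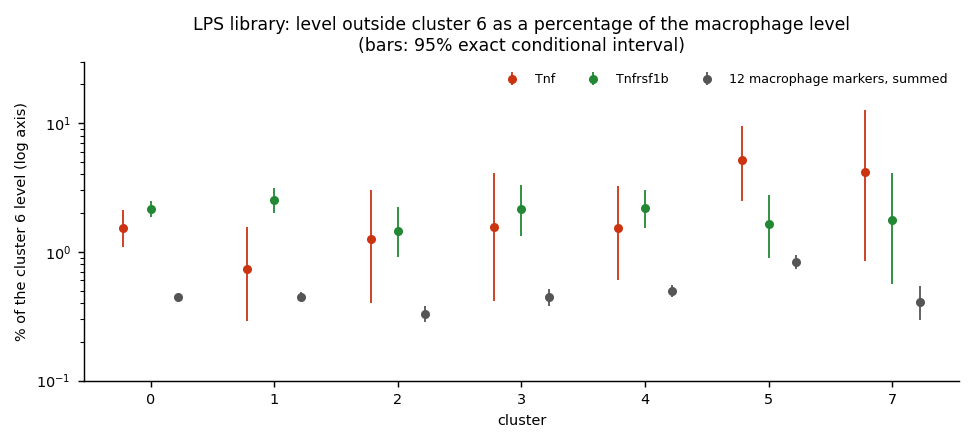
Level in the LPS library outside macrophages as a percentage of the level in cluster 6 (y axis, log scale), by cluster, for *Tnf* (red), *Tnfrsf1b* (green) and 12 macrophage markers summed (grey), with 95% exact conditional intervals. In the 7 clusters plotted, those with a *Tnf* UMI, the summed markers lie between 0.328% and 0.835%, and *Tnf* reaches 5.14% in cluster 5.

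*Tnfrsf1a*, the gene of TNFR1, was measured in every cluster and was the most even of the members. Its level ranged from 97.5 CPM (cluster 3) to 237 CPM (cluster 5) in control cells, and from 89.5 CPM (cluster 8) to 151 CPM (cluster 5) in LPS cells. LPS and control levels were within 2-fold in 10 of the 10 clusters with at least 50 UMIs. The 2 endothelial clusters stood highest in both libraries among the clusters with at least 100 UMIs in each library. In LPS cells their levels of 151 and 147 CPM did not differ beyond counting error, and clusters 10, 3, 1, 0 and 7, between 109 and 113 CPM, could not be told apart.

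The ratios of LPS to control for *Tnfrsf1a* lay between 0.635 and 1.14. The lowest was in cluster 5, where 1007 control and 685 LPS UMIs gave 237 and 151 CPM, a ratio of 0.635 (0.576 to 0.701). The highest was in cluster 3, with 690 and 607 UMIs, at 97.5 and 111 CPM, a ratio of 1.14 (1.02 to 1.27). In 6 clusters the interval lay below 1 and in 1 above it. The thinned share of cells with a *Tnfrsf1a* UMI was 31.6% and 28.7% in control and LPS cells of cluster 0, and 30.6% and 27.9% in macrophages.

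These small ratios are to be read against the genes around them. The median log2 ratio of all genes with at least 50 UMIs was -0.30 in cluster 6, -0.13 in cluster 0 and -0.12 in cluster 2, and within 0.1 of 0 in the other clusters. In macrophages *Tnfrsf1a* had 362 control and 243 LPS UMIs, 116 and 97.8 CPM, a log2 ratio of -0.25, or 0.053 once centred on that median. In cluster 0 it had 128 and 110 CPM, a log2 ratio of -0.22, or -0.089 once centred.

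*Tnfrsf1b*, the gene of TNFR2, was highest in macrophages in the LPS library and was higher in LPS than in control macrophages. It had 88 control and 466 LPS UMIs in cluster 6, at 28.3 CPM (22.7 to 34.8) and 187 CPM (171 to 205), a 6.63-fold difference (5.27 to 8.43), at place 69 of 6344 genes. After thinning, a *Tnfrsf1b* UMI was seen in 9.25% of control and 39.3% of LPS macrophages. The gene was detected more widely among LPS macrophages than *Tnf*, with 1 UMI in 80 cells, 2 in 46 and 3 or more in 63.

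In cluster 0 *Tnfrsf1b* had 3.70 CPM in control and 4.04 CPM in LPS cells, a ratio of 1.09 (0.931 to 1.28). In control cells of cluster 9 it had 7 UMIs, 15.6 CPM (6.25 to 32.1), an interval that overlaps that of control macrophages. The levels of the clusters other than 6 with at least 10 UMIs in each library lay between 1.60 and 5.12 CPM. In cluster 1 the ratio was 1.40 (1.03 to 1.91), from 81 and 95 UMIs, and it was below 1 when cells were thinned to 3000 UMIs (-0.40 on the log2 scale). Elsewhere in the LPS library the level was 1.46% to 3.35% of that in macrophages, and in cluster 0 it was 2.16% (1.86 to 2.50), above the 0.444% of the summed macrophage markers.

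The balance of UMIs between both TNF-α receptor genes differed between the libraries in macrophages. *Tnfrsf1b* took 19.6% (16.0 to 23.5) of the UMIs of *Tnfrsf1a* and *Tnfrsf1b* in control macrophages and 65.7% (62.1 to 69.2) in LPS macrophages. In cluster 0 the values were 2.80% (2.51 to 3.11) and 3.53% (3.15 to 3.95), and in the endothelial clusters 4 and 5 they were 2.75% and 2.72%, and 1.56% and 2.00%. Each UMI is the 3′ end of 1 molecule, and the capture of the 2 genes may differ, so this percentage compares clusters and libraries and not the amounts of the 2 RNAs.

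**Figure D3:**
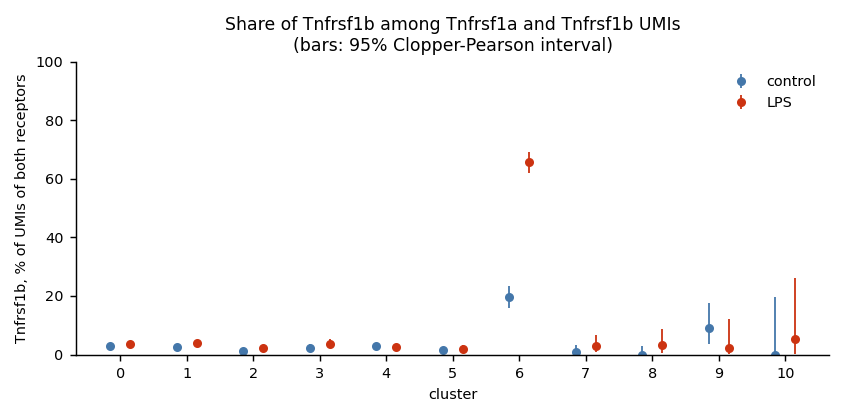
*Tnfrsf1b* UMIs as a percentage of the UMIs of *Tnfrsf1a* and *Tnfrsf1b* together (y axis), by cluster, in control (blue) and LPS cells (red), with 95% Clopper-Pearson intervals. Macrophages (cluster 6) stand apart in LPS cells, at 65.7%, while their control value, 19.6%, has an interval that overlaps those of the small clusters 9 and 10.

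*Tnfrsf11b*, the gene of osteoprotegerin, had high levels in the fibroblast clusters and was higher in LPS cells of every cluster. In cluster 0 it had 4594 control and 17173 LPS UMIs, at 50.8 CPM (49.3 to 52.3) and 233 CPM (229 to 236), a 4.59-fold difference (4.44 to 4.74). After thinning, a UMI was seen in 11.7% of control and 42.8% of LPS cells of cluster 0. The ratio was at least 2 in 10 of the 10 clusters with at least 50 UMIs, from 3.00 (2.58 to 3.49) in cluster 2 to 5.59 (4.55 to 6.93) in cluster 3. In cluster 9, with 25 control and 68 LPS UMIs, the gene reached 50 only through its LPS UMIs, so it could only be higher there.

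The clusters with high and with low levels were the same in both libraries apart from cluster 10. In control cells the fibroblast clusters 7, 1 and 0, with clusters 9 and 8, lay between 47.7 and 56.9 CPM with overlapping intervals between neighbours, and clusters 2, 6, 3, 5 and 4 lay between 14.1 and 25.7 CPM. In LPS cells cluster 7, led by the interferon-response genes *Mx1* and *Ifit3*, had 286 CPM, the highest value, next to 243 CPM in cluster 9 and 233 in cluster 0, and cluster 4 had the lowest, 52.3 CPM. Cluster 10, led by *Sox10* and *S100b*, held 0 UMIs in 16 control cells and 28 in 26 LPS cells, of which 16 lay in 1 cell.

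Fibroblast RNA was present in all clusters, so the lower levels of *Tnfrsf11b* were set beside it. In LPS cells of clusters 2, 3, 4, 5 and 6 the *Tnfrsf11b* level was 33.1%, 38.0%, 22.5%, 28.9% and 28.2% of that in cluster 0. In the same order, 8 fibroblast markers summed, collagens and *Dcn* among them, were at 39.4%, 32.2%, 22.1%, 20.6% and 27.8%. The intervals were apart in clusters 3 and 5, with *Tnfrsf11b* the higher, and in cluster 2, with it the lower. They overlapped in clusters 4 and 6. Single markers ranged from 16.7% in cluster 4 to 77.7% in cluster 2. In macrophages the *Tnfrsf11b* UMIs, 65 in control and 163 in LPS cells, were found in deeper cells, with a median of 12568 UMIs in the LPS cells that held one against 6605 in those that did not. In LPS cells of cluster 9 *Tnfrsf11b* was at 104% (81.1 to 132) of its cluster 0 level and the summed fibroblast markers at 136% (132 to 140). The part of fibroblast RNA in the levels of these clusters was not tested.

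*Tnfrsf12a*, the gene of Fn14, was also higher in LPS cells of every cluster, apart from macrophages when cells were thinned. In cluster 0 it had 2724 and 6864 UMIs, at 30.1 CPM (29.0 to 31.3) and 93.1 CPM (90.9 to 95.3), a 3.09-fold difference (2.96 to 3.23), and a UMI was seen after thinning in 8.56% and 23.4% of the cells. The ratio was at least 2 in 4 of 9 clusters, the fibroblast clusters 0, 1 and 7, at 3.09, 2.93 and 2.43, and cluster 3, at 2.04 (1.75 to 2.38). In clusters 2, 4, 5, 6 and 8 it lay between 1.52 and 1.92, with every interval above 1.

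The level of *Tnfrsf12a* was ordered differently from that of osteoprotegerin. It was highest in cluster 8, led by *Bnc1* and *Upk1b*, at 110 CPM (91.1 to 131) in control and 210 CPM (184 to 240) in LPS cells, and in cluster 10, at 90.4 CPM (48.1 to 155) and 220 CPM (153 to 305). The endothelial cells of cluster 4 followed with 75.1 and 120 CPM. Macrophages had the lowest level in both libraries, 18.6 CPM (14.1 to 24.1) and 31.0 CPM (24.4 to 38.7), from 58 and 77 UMIs, though in control cells the interval overlapped that of cluster 9. When cells were thinned the difference in macrophages turned to -0.22 on the log2 scale.

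*Tnfsf9*, the gene of 4-1BBL, was low in all clusters and in both libraries. In cluster 0 it had 138 control and 112 LPS UMIs, 1.52 CPM in each, a ratio of 0.996 (0.769 to 1.29). In cluster 1, led by the cell cycle genes *Sgo2* and *Top2a*, it had 37 and 54 UMIs, at 1.54 and 2.68 CPM, a ratio of 1.74 (1.12 to 2.72). In macrophages it had 13 and 11 UMIs, at 4.17 CPM (2.22 to 7.14) and 4.43 CPM (2.21 to 7.92), a ratio of 1.06 (0.430 to 2.56).

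**Figure D4:**
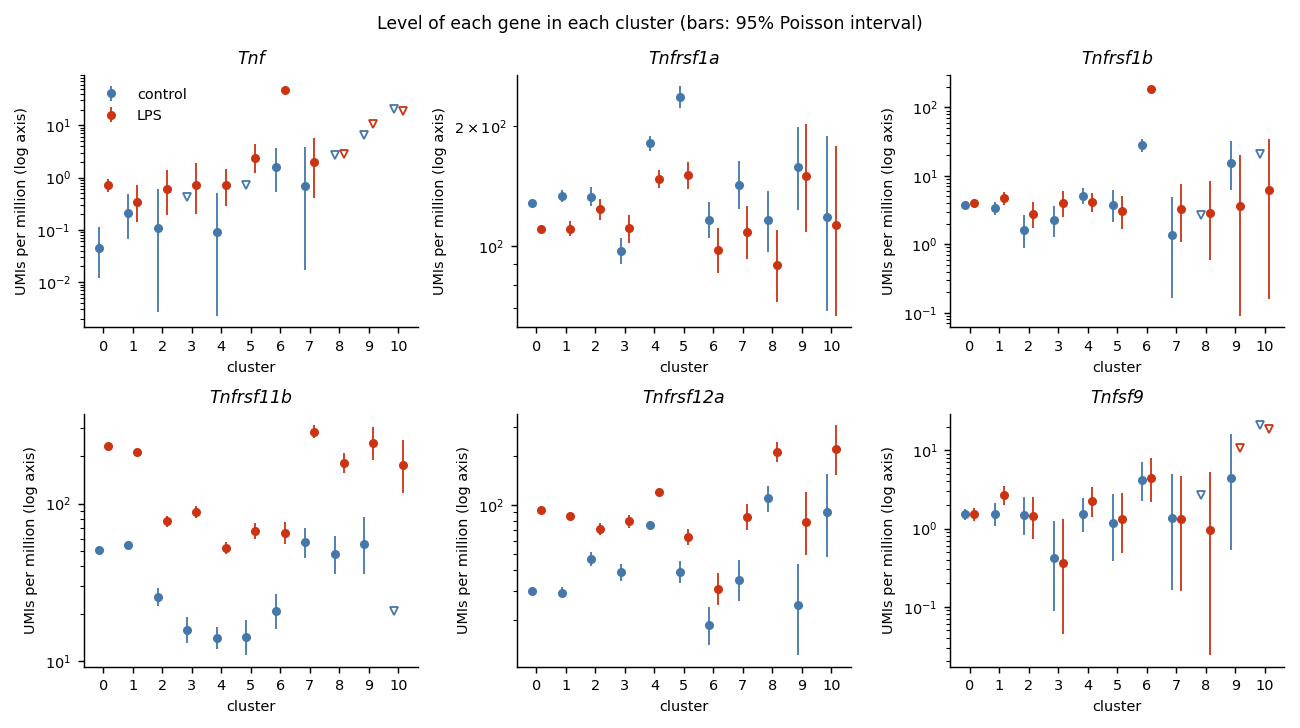
Level of each of the 6 genes (y axis, UMIs per 1000000 UMIs of the cluster, log scale) in each cluster (x axis) for control (blue) and LPS cells (red), with 95% exact Poisson intervals. Open triangles mark the level of 3 UMIs, the limit taken where no UMI was counted. *Tnf* and *Tnfrsf1b* stand out in LPS macrophages (cluster 6) at 47.1 and 187 CPM, while *Tnfrsf11b* and *Tnfrsf12a* are higher in LPS cells of every cluster at the cells' own depth.

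Over all members and clusters, 37 of 66 pairs of a gene and a cluster had at least 50 UMIs. In 17 of them the LPS level was at least 2-fold higher and in 0 at least 2-fold lower. Of the 17 pairs, 10 were *Tnfrsf11b*, 4 *Tnfrsf12a*, 2 *Tnf* and 1 *Tnfrsf1b*. Pairs of 1 gene are not separate observations. In LPS cells of the other clusters, the summed fibroblast markers were at 20.6% to 136% of the cluster 0 level. The part of fibroblast RNA in the 10 *Tnfrsf11b* pairs was not tested. *Tnf* reached 50 UMIs in clusters 0 and 6 only through its LPS UMIs, so it could only be higher there. The same holds for *Tnfrsf11b* in cluster 9, with 25 control and 68 LPS UMIs. The members were chosen with earlier results of these data known, so the counts that follow are a description only. In cluster 0 the 3 of 6 members that were higher stand beside 3.46% of all genes tested there, and in cluster 6 the 3 of 5 beside 4.85%. The corresponding shares were 3.22%, 2.86%, 1.71%, 2.66%, 4.26%, 4.72%, 2.48% and 2.71% in clusters 1, 2, 3, 4, 5, 7, 8 and 9, and 3.57% in cluster 10, where no member had 50 UMIs. In the order of those clusters up to 9, 2 of 5, 1 of 3, 2 of 3, 1 of 4, 1 of 3, 2 of 3, 1 of 3 and 1 of 2 members were higher. At least 2-fold lower were 9.08% of all genes in cluster 0, 12.3% in cluster 6 and 5.1%, 4.27%, 1.68%, 4.07%, 4.59%, 3.48%, 1.69%, 2.83% and 0.984% in clusters 1, 2, 3, 4, 5, 7, 8, 9 and 10.

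**Figure D5:**
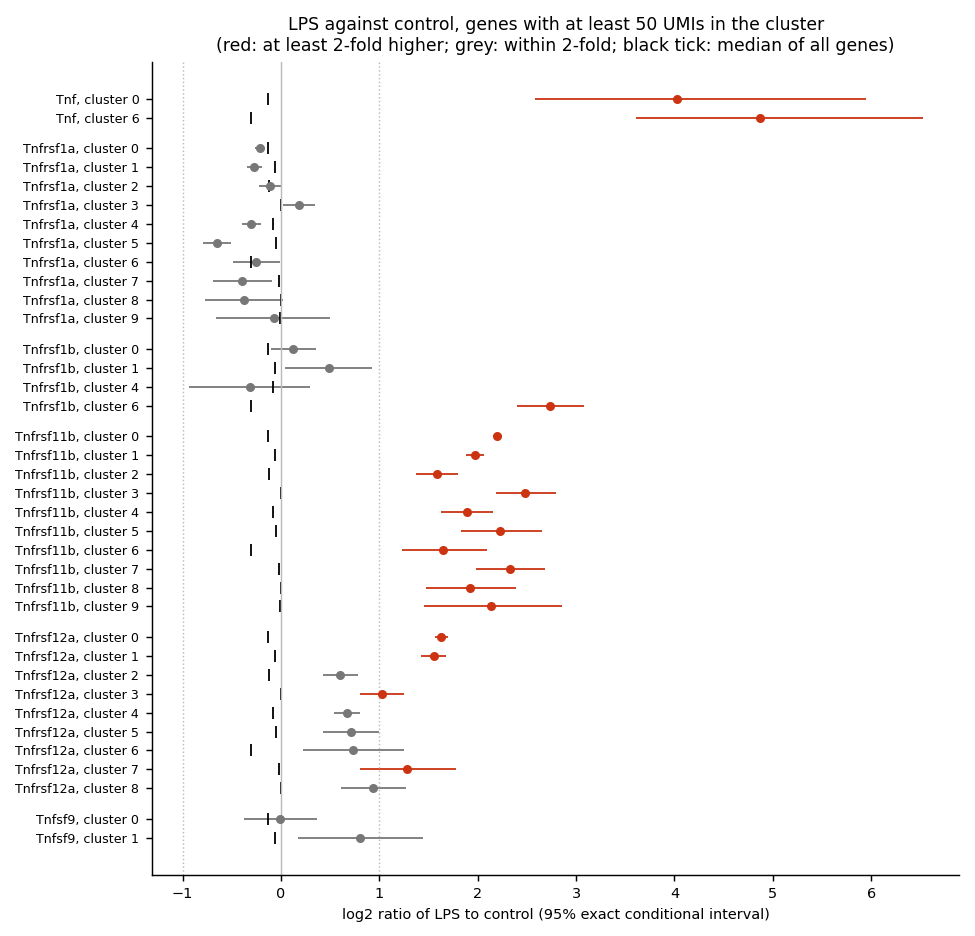
Log2 ratio of LPS to control (x axis) for the 37 pairs of a gene and a cluster with at least 50 UMIs, with 95% exact conditional intervals. Red points are at least 2-fold higher in LPS (17 pairs) and grey points within 2-fold, dotted lines mark 2-fold, and a black tick gives the median of all genes in that cluster.

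The partners of the members were read in the same way. Most are ligands or receptors that bind a member, whereas *Tnfrsf11a* encodes a receptor of the osteoprotegerin ligand RANKL. *Lta*, the gene of lymphotoxin-α, which binds both TNF-α receptors and lies next to *Tnf* in the RefSeq gene order of GRCr8, had 0 UMIs in control and 64 in LPS macrophages (25.7 CPM). Its UMIs lay in 18 of 291 cells, up to 16 in 1 cell. An *Lta* UMI was seen in 15.2% (7.51 to 26.1) of the LPS macrophages with *Tnf* and in 3.56% (1.55 to 6.89) of those without, but after thinning in 9.09% (1.92 to 24.3) and 3.11% (1.35 to 6.04), which overlap.

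*Tnfrsf1b*, in contrast, was seen after thinning in 39.4% and 39.3% of LPS macrophages with and without a *Tnf* UMI. Lymphocytes are the usual source of lymphotoxin-α, and UMIs of 0 of 5 lymphocyte markers were found in LPS cells of cluster 6. *Ltb*, which lies on the other side of *Tnf*, had 0 UMIs in both libraries.

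For osteoprotegerin, *Tnfsf11* had 0 UMIs in both libraries, and *Tnfrsf11a*, the gene of the RANKL receptor RANK, had 36 UMIs in control macrophages and none in those given LPS. In cluster 5 *Tnfrsf11a* had 4 and 15 UMIs, a ratio of 3.50 (1.12 to 14.5). *Tnfsf10*, the gene of TRAIL, was found mainly in endothelial cells, with 39 and 59 UMIs in cluster 4, a ratio of 1.73 (1.13 to 2.66).

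*Tnfsf12*, the gene of the Fn14 ligand TWEAK, was lower in LPS macrophages, with 127 and 42 UMIs, at 40.8 and 16.9 CPM, a ratio of 0.414 (0.285 to 0.592). In cluster 0 its ratio was 0.785 (0.727 to 0.848). *Tnfrsf9*, the gene of the 4-1BBL receptor, was higher in LPS cells, from 3.64 to 11.2 CPM in cluster 0, a ratio of 3.08 (2.71 to 3.51), from 5.55 to 28.2 CPM in cluster 2, a ratio of 5.08 (3.75 to 7.0), and from 2 to 38 UMIs in cluster 5.

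Genes of TNF receptor signalling, a list of 36 adaptors, kinases, ubiquitin enzymes and proteases, were tested beside the members. In cluster 0, 8 of 33 with at least 50 UMIs were at least 2-fold higher in LPS and 2 were lower. Of all genes tested there, 3.46% were higher and 9.08% lower. The median log2 ratio of the list was 0.31, against -0.13 for all genes. The largest ratios there were those of *Birc3*, a ubiquitin ligase of the receptor complex, at 24.5 (20.7 to 29.2), *Tnfaip3*, the feedback inhibitor A20, at 16.3 (8.60 to 34.8), and *Rhbdf2*, which carries the TNF-α sheddase to the cell surface, at 7.25 (6.35 to 8.30). The 2 lower genes were *Timp3*, the inhibitor of that sheddase, at 0.371 (0.294 to 0.465), and the kinase gene *Map3k5*, at 0.472 (0.242 to 0.876). The 3 genes with the largest ratios were picked by the size of their change in these data. With 10 control and 133 LPS UMIs, *Tnfaip3* reached 50 UMIs only through the LPS library, so it could only be higher. *Timp3* and *Map3k5* lay outside that rule and were added after their values were seen.

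In macrophages 6 of 20 genes of this list were higher and 2 lower, with a median log2 ratio of 0.37 against -0.30. Of all genes tested in macrophages, 4.85% were higher and 12.3% lower. *Birc3* had 7 control and 139 LPS UMIs, a ratio of 24.9 (11.8 to 63.0). *Cflar*, the gene of the caspase-8 inhibitor c-FLIP, had 15 and 105, a ratio of 8.77 (5.08 to 16.2). *Birc3* and *Cflar* passed the minimum only through the LPS library, so they could only be higher. Both count among the 6 higher genes and in the median of the list. *Otulin*, a deubiquitinase of linear chains, was lower, with 339 and 73 UMIs, a ratio of 0.270 (0.207 to 0.348).

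Of 37 other genes of the superfamily, 16 in cluster 0 had at least 50 UMIs, and 5 of these were higher and 1 lower in LPS. The shares of all genes there were 3.46% higher and 9.08% lower. The median log2 ratio of the list was -0.16, against -0.13 for all genes. *Tnfsf4*, the gene of OX40L, had 4 and 65 UMIs, a ratio of 19.9 (7.42 to 75.4), and *Tnfsf18*, the gene of GITRL, 54 and 230, a ratio of 5.23 (3.87 to 7.17). Of these, *Tnfsf4* reached 50 UMIs only through the LPS library, so it could only be higher. *Ngfr*, the low-affinity nerve growth factor receptor gene, had 175 and 40 UMIs, a ratio of 0.280 (0.194 to 0.397).

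In macrophages 4 of 9 were higher and 2 lower, beside 4.85% and 12.3% of all genes, with a median of 0.036 against -0.30. *Cd40*, a receptor of antigen-presenting cells, had 35 and 245 UMIs, a ratio of 8.77 (6.14 to 12.9). *Tnfrsf21*, the gene of death receptor DR6, had 78 and 6, a ratio of 0.0964 (0.0343 to 0.219). *Lta* was the third of the named genes there. It had 0 control UMIs and passed the minimum only through the LPS library, so it could only be higher.

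The genes whose pattern was most like that of each member were found by Pearson correlation of log2(CPM + 1) over 22 levels, 11 clusters in 2 libraries, among 12259 genes. The levels share libraries and depth, so r is a description. For *Tnf* they were *Clec4e* (r = 0.949), a macrophage receptor for damaged cells and mycobacteria, *Rgs1* (0.940) and the inflammasome gene *Nlrp3* (0.931). In LPS macrophages *Clec4e* had 32.2 CPM against 1.61 CPM in control, and *Nlrp3* 135 against 5.78 CPM.

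For *Tnfrsf1b* the most alike was *Ncf4* (r = 0.905), a subunit of the phagocyte oxidase, at 238 CPM in control and 323 CPM in LPS macrophages, followed by 2 unnamed genes, AABR07014512.1 (0.881) and AABR07038983.1 (0.878). For *Tnfrsf11b* they were *Kif26b* (0.913), *Klf15* (0.893) and *Micalcl* (0.871), and for *Tnfrsf12a* *Pinx1* (0.826), *Mrpl33* (0.811) and *Pfdn6* (0.807). *Tnfrsf1a* was most like *Krt1* (0.835), *Rtn1* (0.821) and *Fam198b* (0.821), and *Tnfsf9* was most like *Lnpk* (0.881), *Pggt1b* (0.871) and *Bin2* (0.832). In cluster 0 *Krt1* had 0.365 control and 0.271 LPS CPM, and *Pggt1b* 0.718 and 0.515 CPM. At levels this low r is uncertain.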

How the data were processed

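The deposited values are raw UMI counts per gene and cell, with no normalization. The submitters' processing notes name Cell Ranger 2.2.0 and Seurat 2.3.4, and the genome build and annotation are not given in the sources used here. The authors grouped the cells of both libraries after canonical correlation analysis, at a resolution of 0.5, and their cluster for each cell was used as deposited. The 2 control and 8 LPS cells without a cluster were left out of the classes, and no other cell was filtered. No doublet caller was run.

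Counts were summed per gene, cluster and library and divided by the total of the cluster, in Python 3.11.15 with numpy 2.4.6, pandas 2.3.3 and scipy 1.17.1. Intervals at 95% are exact Poisson (levels), exact conditional (ratios) or Clopper-Pearson (shares of cells), treat UMIs as independent and express counting error alone. For a gene without UMIs the limit was set at 3 UMIs. Genes with at least 50 UMIs in a cluster over both libraries were compared by a fixed 2-fold rule, with no test. A gene almost absent from either library passes this only through the other, and its direction is then fixed. Thinning to 3000 UMIs left out 79 LPS cells and 0 control cells. Checked on simulated Poisson counts, 99.5% of 200 genes given a 4-fold change among 6385 in cluster 6 were past 2-fold. The true ratio lay within 96.1% of the intervals. Such counts lack the added spread between real cells, where the variance over the mean of *Tnf* was 2.37 in LPS macrophages. The check therefore covers the calculation alone and not the intervals for the real counts.

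The members and gene lists were chosen with earlier results of these data known. Named are the members, their partner genes, the 3 genes most like each member and, in each list, the 3 most changed genes (absolute log2 ratio) in clusters 0 and 6. Alternatives were other filters on cells, totals and folds, thinning and centring on the median gene.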

Additional observations from a re-analysis of the deposited data

Results flagged for a closer look

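The direction of the *Tnfrsf1a* difference was not the same in all clusters. LPS over control gave 1.14 (1.02 to 1.27) in the whole of cluster 3 and 0.635 (0.576 to 0.701) in the endothelial cells of cluster 5. The intervals lie on opposite sides of 1. The difference between these clusters was not tested, since each rests on 1 library per condition. In the cells of cluster 3 with a *Dbh* UMI the ratio was 0.983 (0.728 to 1.32), from 144 and 70 UMIs. That interval holds 1 and overlaps that of the whole cluster.

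*Tnfrsf11a*, the gene of RANK, also differed in opposite directions. Its ratio was 3.50 (1.12 to 14.5) in cluster 5, from 4 and 15 UMIs, and 0 (0 to 0.135) in macrophages, from 36 and 0 UMIs. This difference was not tested either.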

How the results depend on the processing

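No paired analysis was possible because neither treatment was repeated. The log2 ratio of *Tnf* in macrophages, 4.87, stayed within its counting interval (3.61 to 6.52) in 8 of 9 alternatives and moved to 3.35 when cells were thinned to 3000 UMIs. That interval is wide, with 5 control UMIs, and leaving out mitochondrial genes or cells with fewer than 1000 genes could change little. Taking all cells with at least 3 macrophage markers gave 5.95. Those were 549 control cells, 281 of them in cluster 6, with 5 *Tnf* UMIs in all. The *Tnf* level of 0.730 CPM in LPS cells of cluster 3 stayed within its interval in 5 of 6 alternatives and was 0 in cells with a *Dbh* UMI alone. The count of 17 pairs at least 2-fold higher was 20 with a minimum of 20 UMIs, 23 at 1.5-fold and 18 after centring on the median gene, and the count of 0 pairs lower was 0, 1 and 0, the 1 being *Tnfrsf1a* in cluster 5.

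For the other 36 pairs of a gene and a cluster, 268 of 284 alternative values lay within the counting interval of the ratio, 13 moved outside it, and 3 changed sign from an interval that did not hold 0. The 268 include settings that could change little. These left out mitochondrial genes, cells with fewer than 1000 genes or the cell with most UMIs of the gene, and each kept all 36 values within. Thinning gave 8 of the 13 and 2 of the 3. Among the 13, *Tnfrsf1b* in cluster 4 went from -0.32 to 0.50 when cells were thinned. Centring put *Tnfrsf1a* in macrophages at 0.053, and thinning put *Tnfrsf1b* in cluster 1 at -0.40 and *Tnfrsf12a* in macrophages at -0.22, on the log2 scale. Thinning keeps fewer UMIs. The cause of the other shifts was not tested. Of 72 shares of cells at another depth, 56 lay outside the interval of the share at 3000 UMIs, so these shares hold for that depth alone. Depth limits *Tnf* outside macrophages and *Tnfsf9* in most clusters.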
